A study of Homo sapiens with 4 samples.

Results

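The genes described here are the 7 that switch sterol-dependent transcription on and off, namely SREBF1, SREBF2, SCAP, INSIG1, INSIG2, MBTPS1 and MBTPS2. They were chosen by name, as the sterol-sensing machinery of the cell, and all 7 were found among the 14416 genes with a measured transcript level. The cells were OMM2.3, an established human uveal melanoma line labelled as wild type. Before RNA was taken they spent 24 h either in meclofenamic acid (MA), an anti-inflammatory cyclooxygenase inhibitor known also to inhibit the m6A demethylase FTO, or in DMSO, labelled NC. The MA dose is not given in the sources used here. Each exposure gave 1 input library of fragmented poly(A) RNA and 1 library of fragments bound by an antibody to N6-methyladenosine (m6A), which makes 4 libraries. No exposure had a replicate, so there is no test between MA and NC. Every difference below describes these libraries, and culture and preparation cannot be told apart from the drug.

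SREBF1 and SREBF2 encode the sterol regulatory element binding proteins (SREBPs), transcription factors made as membrane precursors in the endoplasmic reticulum. SCAP binds the precursors and, when membrane cholesterol is low, carries them in COPII-coated vesicles to the Golgi. There the site-1 protease (MBTPS1) and then the site-2 protease (MBTPS2) cut them and free the part that enters the nucleus and activates genes of sterol and fatty acid synthesis. INSIG1 and INSIG2 hold SCAP and its cargo back when sterols are plentiful, and INSIG1 is itself an SREBP target, which closes a feedback loop.

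The promoters below are shown because INSIG1 and SREBF2 are textbook targets of the SREBPs themselves, and SCAP because its window holds the same E-box as that of INSIG1. RefSeq windows (GRCh38.p14) from 250 bases before to 50 bases after the start of transcription were matched for all 7 genes, with 2 windows for INSIG2. They were searched on both strands for a sterol regulatory element core (TCACNCCAC), the E-box CACGTG, which SREBPs also bind, the NF-Y box CCAAT and the GC box GGGCGG. Capitals mark the first 3 motifs, in either orientation (the reverse of CCAAT reads ATTGG). GC box matches may overlap each other and are left in lower case.
INSIG1, chr7:155297628-155297927, plus strand: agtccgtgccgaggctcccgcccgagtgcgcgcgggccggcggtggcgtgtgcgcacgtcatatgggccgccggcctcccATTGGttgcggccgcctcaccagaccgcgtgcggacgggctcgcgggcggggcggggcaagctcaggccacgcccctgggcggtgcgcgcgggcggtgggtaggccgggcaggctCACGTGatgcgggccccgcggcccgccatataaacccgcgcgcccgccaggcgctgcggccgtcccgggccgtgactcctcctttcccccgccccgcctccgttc
SREBF2, chr22:41832855-41833154, plus strand: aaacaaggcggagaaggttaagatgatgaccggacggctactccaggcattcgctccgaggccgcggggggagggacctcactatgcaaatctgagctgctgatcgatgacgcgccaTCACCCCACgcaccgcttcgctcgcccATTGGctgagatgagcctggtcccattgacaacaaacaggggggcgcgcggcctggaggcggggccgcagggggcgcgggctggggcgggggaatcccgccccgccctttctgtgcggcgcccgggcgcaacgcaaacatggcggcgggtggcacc
SCAP, chr3:47475892-47476191, minus strand: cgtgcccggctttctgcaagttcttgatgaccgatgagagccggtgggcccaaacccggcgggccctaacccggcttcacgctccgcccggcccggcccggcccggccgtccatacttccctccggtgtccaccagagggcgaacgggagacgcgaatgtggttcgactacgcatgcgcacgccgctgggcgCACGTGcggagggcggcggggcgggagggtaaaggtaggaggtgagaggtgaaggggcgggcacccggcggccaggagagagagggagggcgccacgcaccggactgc

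The sterol regulatory element core lay in the SREBF2 window alone among the 7 genes, 133 bases before the start, and in 1.13% of all 35116 windows. The E-box lay in the windows of INSIG1, 55 bases before the start, and SCAP, 58 bases before it, and in 7.26% of all windows. INSIG1 and SREBF2 also held a reversed CCAAT box, a motif of 34.6% of all windows. The GC box was found in windows of 5 of the 7 genes (INSIG1, INSIG2, SCAP, SREBF1 and SREBF2) and in 45.0% of all windows. A match is a string of letters in a fixed window, and binding was not measured.

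In the inputs, both INSIG genes and the site-2 protease gene were higher with MA, while the SREBP genes, SCAP and the site-1 protease gene were lower. Levels are FPKM (fragments per kilobase of gene, scaled to the library total), which the authors computed. In such bulk RNA, fewer cells with a transcript and less transcript per cell cannot be told apart. Differences are log2((MA FPKM + 1)/(NC FPKM + 1)). A gene was counted as higher or lower when it was past 2-fold on that scale, among the 10564 genes that reached 1 FPKM in at least 1 input. By this rule 2 of the 7 genes, INSIG1 and INSIG2, were higher, and 10.3% of all tested genes were. None of the 7 was lower by 2-fold, against 2.98% of all tested genes. The median of the 7 differences was -0.37, and that of all tested genes was 0.11.

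SREBF2, the SREBP that mainly drives cholesterol synthesis, was the most abundant of the 7 genes in either library. It was at 189 FPKM in MA and 250.0 FPKM in NC, a log2 difference of -0.40. SREBF1, whose products mainly drive fatty acid synthesis, was at 48.3 FPKM in MA and 65.3 FPKM in NC, a log2 difference of -0.43. The differences were nearly the same, and the level of SREBF2 relative to SREBF1 was 3.91 in MA and 3.83 in NC. The sum of their levels was 237 FPKM in MA and 315 FPKM in NC. Counting error was small beside these values. Without a pseudocount, the log2 ratio of SREBF2 was -0.41, with an exact 95% binomial interval of -0.43 to -0.38. That of SREBF1 was -0.43 (-0.47 to -0.40). These intervals cover counting error only, not the spread between cultures.

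SCAP, the escort protein, had the lowest difference of the 7 genes. It was at 15.9 FPKM in MA and 27.8 FPKM in NC, a log2 difference of -0.77. Its log2 ratio without a pseudocount was -0.81 (interval -0.88 to -0.75), which stayed short of 2-fold. Of all tested genes, 5.98% had a lower difference than SCAP.

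INSIG1, the sterol-responsive retention factor, was at 98.4 FPKM in MA and 11.5 FPKM in NC. The log2 difference of 2.99 ranked 10th from the highest of the 10564 genes. Without a pseudocount its level was 8.54-fold higher in MA, with an interval of 7.83 to 9.33. INSIG2, the retention factor encoded by a separate gene, was far less abundant. It was at 4.18 FPKM in MA and 1.18 FPKM in NC, a log2 difference of 1.25 that ranked 487th. Its ratio without a pseudocount was 3.53, and the interval of 2.33 to 5.50 was wide because the values resolve to minimum read numbers of only 115 in MA and 29 in NC. The sum of the INSIG levels was 103 FPKM in MA and 12.7 FPKM in NC. The level of INSIG1 relative to INSIG2 was 23.5 in MA and 9.73 in NC, so INSIG1 made up nearly all INSIG transcript in either library.

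**Figure D1:**
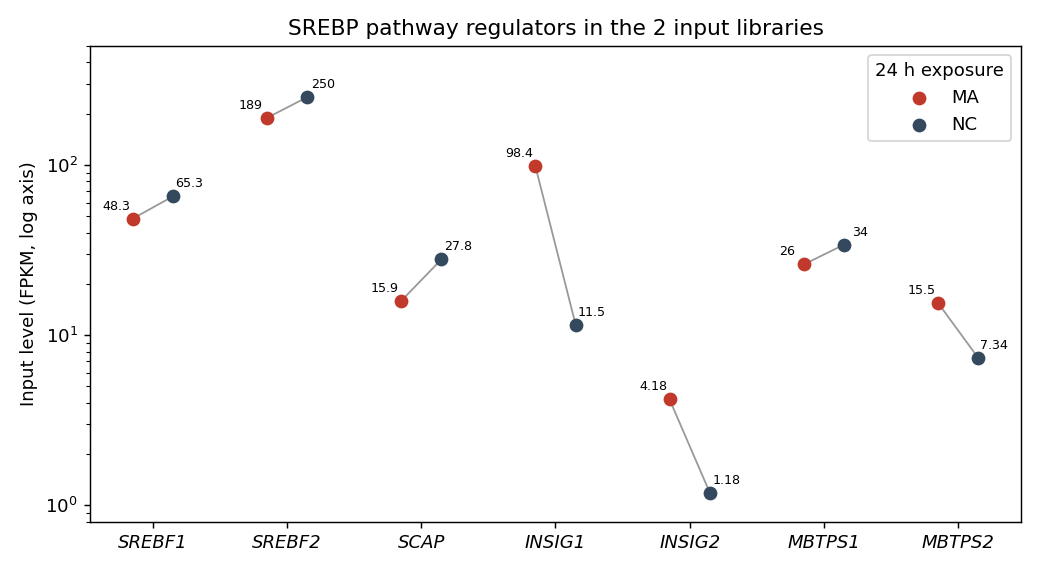
Input levels of the 7 regulators in FPKM (log axis), with MA (red, left) and NC (dark, right) joined for each gene. Each point is 1 library. The joining lines of INSIG1, INSIG2 and MBTPS2 descend from MA to NC, and those of the other 4 genes ascend.

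MBTPS2, the intramembrane site-2 protease, was at 15.5 FPKM in MA and 7.34 FPKM in NC. Its log2 difference of 0.98 lay just under the 2-fold line, while the ratio of the levels without a pseudocount was 2.11 (interval 1.91 to 2.32). MBTPS1, the serine protease that cuts first, was at 26.0 FPKM in MA and 34.0 FPKM in NC, a log2 difference of -0.37. Its log2 ratio without a pseudocount was -0.39 (interval -0.44 to -0.34). The protease genes therefore differed in direction, and the level of MBTPS1 relative to MBTPS2 was 1.68 in MA and 4.63 in NC.

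The order of the 7 levels changed between the libraries only through INSIG1. In MA, the order from the highest was SREBF2, INSIG1, SREBF1, MBTPS1, SCAP, MBTPS2 and INSIG2. In NC, INSIG1 stood below SCAP, and MBTPS2 followed it. SCAP and MBTPS2 did not differ beyond counting error in MA, with a level ratio of 1.03 and an interval of 0.963 to 1.09. All other neighbours in the order differed by more than counting error in their own library, down to the ratio of 1.22 (1.18 to 1.27) between MBTPS1 and SCAP in NC. The level of INSIG1 relative to SCAP, its binding partner, was 6.20 in MA and 0.414 in NC. For INSIG2 relative to SCAP the values were 0.264 in MA and 0.0425 in NC. SCAP relative to SREBF2, its cargo, was at 0.0840 in MA and 0.111 in NC.

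**Figure D2:**
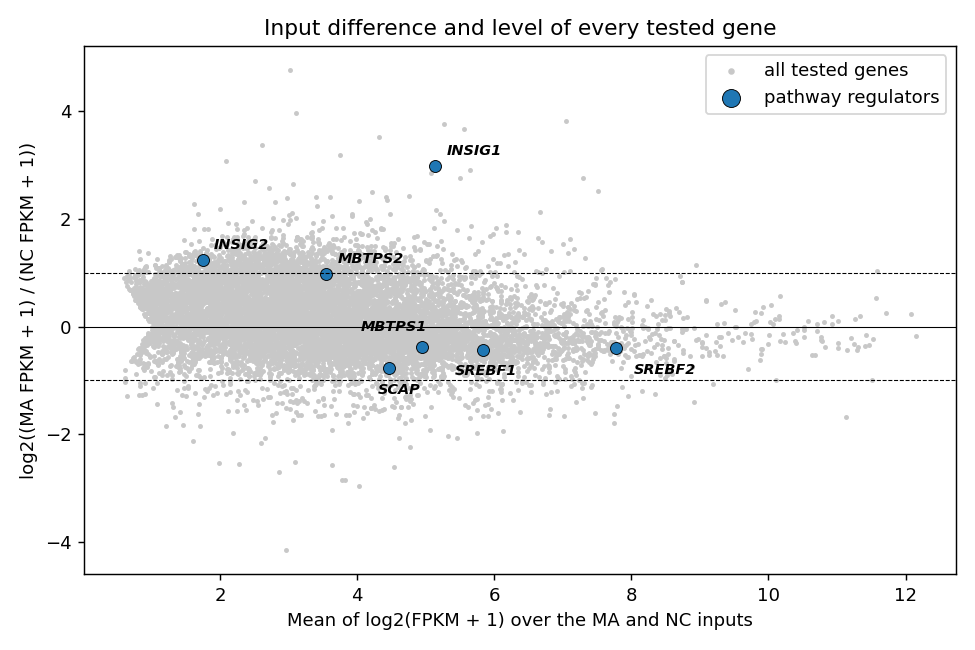
Difference between the MA and NC inputs, as log2((MA FPKM + 1)/(NC FPKM + 1)), against the mean log2(FPKM + 1) of every tested gene (grey) and of the 7 regulators (blue). Dashed lines mark 2-fold. INSIG1 lies at 2.99, with JUN beside it at 2.85, and the SREBF genes, SCAP and MBTPS1 lie between 0 and -1.

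Rescaling the table moved these values without turning a direction. The NC levels were multiplied by 1 factor so that the median difference of all tested genes was 0. Then 788 genes were higher and 452 lower by 2-fold, against 1087 and 315 as deposited. SREBF1, SREBF2, MBTPS1 and SCAP then had log2 differences of -0.56, -0.54, -0.50 and -0.90. The direction of each of the 7 genes was the same under every scaling and pseudocount tried. Differences also went with recovered length over the whole table, the smallest whole length that fits both values of a gene. The share of genes higher by 2-fold was 12.98% among the longest of 3 equal groups by recovered length and 6.62% among the shortest. By this minimum, SREBF1 and MBTPS1 fell in the longest group, SREBF2 and SCAP in the middle one, and INSIG1, INSIG2 and MBTPS2 in the shortest. Recovered lengths went down to 10 bases, and that of INSIG2 was 661 bases. A gene can thus be longer than its group says, and the groups do not sort genes by true length. The part of length in the values of the 7 genes was not tested.

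Of all genes tested, those closest to INSIG1 in their pair of log2(FPKM + 1) values were JUN, CCN2 and HMGCS1, over the 2 input libraries. JUN, an AP-1 subunit, was at 89.8 FPKM in MA and 11.6 FPKM in NC, at a distance of 0.13. CCN2, a YAP target, followed at 0.53 and HMGCS1, an enzyme of the mevalonate pathway, at 0.58. For the other regulators the nearest genes lay closer. The nearest gene to SREBF1 was FLII at 0.0099, that to INSIG2 was ZNF77 at 0.012 and that to MBTPS1 was WDR61 at 0.013. MBTPS2 lay 0.015 from TADA1, SCAP 0.044 from RRS1 and SREBF2 0.051 from SSR2. With 2 libraries, such a likeness is a pair of similar levels and nothing more.

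The m6A peak lists held 9 peaks of these genes in MA and 9 in NC, spread over 5 genes in each. A peak is a stretch of transcript that the authors called as enriched in the m6A library over its input, and each fold enrichment and p-value is theirs. MBTPS1, MBTPS2, SCAP and SREBF1 had peaks in both lists. INSIG2 had a peak only in MA and SREBF2 only in NC, while INSIG1 had none in either. Of all tested genes, 80.0% had a peak in MA and 83.3% in NC, 4.04% had peaks only in MA and 7.29% only in NC. Most tested genes thus had a peak, and 5 of 7 is near that share.

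MBTPS1 carried the most peaks, 3 in MA and 4 in NC. Its 3' UTR peak (GRCh38.p13, minus strand) ran over chr16:84053813-84054362 in MA and chr16:84053813-84054412 in NC. The fold enrichment in the authors' deposited table was 3.45 in MA and 4.02 in NC for this peak. The other MBTPS1 peaks lay towards the 5' end. In MA, a peak annotated as 5' UTR spanned chr16:84101766-84116792 with 400 exonic bases and a fold enrichment of 5.00, above 82.1% of the MA list. In NC, 2 peaks overlapped it by position. The longer was annotated as start codon, spanned chr16:84101966-84116892 with 300 exonic bases and had a fold enrichment of 4.25, above 62.3% of the NC list. The shorter, chr16:84101716-84101866, was annotated as 5' UTR like the MA peak and had a fold of 2.64. The different annotation of the MA peak and the longer NC peak thus belongs to nearly the same stretch. Weaker peaks annotated as 5' UTR, the shorter NC peak among them, had folds of 1.63 in MA and of 1.52 and 2.64 in NC. On the minus strand they lie 3' of the NC start codon peak, so the label does not place them before that start codon. Several peaks of this gene shared 1 p-value in the authors' deposited table, as 3 NC peaks did at 1.48e-05. Such ties occurred in 59.2% of genes with several peaks in MA and 54.2% in NC, so a p-value does not rank the peaks of a gene.

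MBTPS2 was enriched over the same stretch of its 3' UTR in both lists, called as a pair of peaks in MA and as 1 in NC. The MA peaks were chrX:21882476-21882676 and chrX:21882826-21882976 (plus strand), with folds of 2.69 and 2.60. In NC the single peak covered chrX:21882476-21882976 with a fold of 2.67. The outer ends of the stretch were identical.

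SCAP had the same 3' UTR peak to the base in both lists, chr3:47413781-47413980 on the minus strand, 200.0 bases long. Its fold enrichment was 2.37 in MA and 2.31 in NC, with p-values of 2.88e-10 and 1.51e-09 in the authors' deposited table. NC also listed a weak exon peak at chr3:47419400-47419549 with a fold of 1.53, above only 0.657% of the NC list. The list minimum was a fold of 1.50, so this peak lay close to the limit of what was listed.

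SREBF1 had a start codon peak in both lists, over chr17:17820228-17836967 in MA and chr17:17820327-17836967 in NC on the minus strand. It held 648 exonic bases with a fold of 2.31 in MA and 549 exonic bases with a fold of 2.11 in NC. MA also listed a peak annotated as 5' UTR at chr17:17817619-17817769, whose fold of 1.53 exceeded only 0.868% of the MA list. On the minus strand it lies 3' of the start codon peak, so the label does not place it before that start codon. SREBF2, although more abundant, had a single weak exon peak, in NC, at chr22:41867096-41867245 on the plus strand with a fold of 1.84. Of the 482 genes between 94.4 and 378 FPKM in the MA input, a range of 2-fold around the level of SREBF2, 54.6% had a MA peak. Of the 375 genes within 2-fold of its NC level, 60.3% had a NC peak.

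The INSIG2 peak in MA lay at chr2:118096480-118096728 on the plus strand, annotated as 5' UTR. Its fold enrichment was 3.00, above 44.2% of the MA list, and its p-value in the authors' deposited table was 1.29e-08. In NC the gene had 1.18 FPKM of input and no listed peak. Of the 1658 genes within 2-fold of that input level in NC, 82.4% had a NC peak, and of the 3518 genes within 2-fold of its level in MA 86.2% had a MA peak. The NC range went down to 0.592 FPKM, and genes below 1 FPKM in NC passed the filter through MA alone. The INSIG2 input was itself higher in MA, and its part in the difference between the lists was not tested. INSIG1 had no peak at either level. Of the 998 genes within 2-fold of its MA level, 62.5% had a MA peak, and of the 3783 genes within 2-fold of its NC level, 88.8% had a NC peak.

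**Figure D3:**
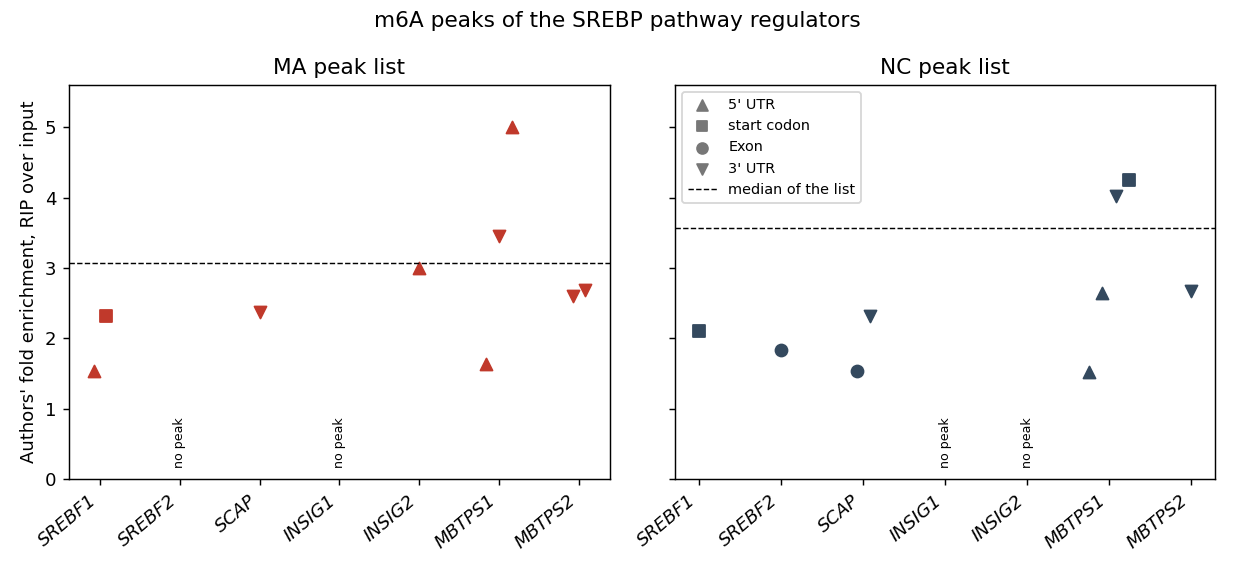
Authors' fold enrichment of each m6A peak of the 7 regulators in the MA list (left) and the NC list (right), with the annotated feature as the symbol and the median of each list dashed. Folds are read within a list only. MBTPS1 alone has peaks above the median of its list, 2 in MA and 2 in NC, and INSIG1 has no peak in either panel.

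The peaks of these genes were mostly weak for their lists. Their median fold was 2.60 in MA, where the whole list had 3.07, and 2.31 in NC, where the whole list had 3.57. By label, 5 of 9 MA peaks and 4 of 9 NC peaks were annotated as 5' UTR or start codon, against 19.7% of all MA peaks and 20.5% of all NC peaks. Some of those labelled 5' UTR, in MBTPS1 and SREBF1, lay 3' of a start codon peak of the gene, so the counts describe labels. The 3' UTR held 4 in MA and 3 in NC. Peaks of 1 gene are not independent, and MBTPS1 and SREBF1 supplied all but 1 of the peaks labelled 5' UTR or start codon. A partner in the other list, overlapping by at least 1 base on the same strand, was found for 7 of 9 peaks in MA and 7 of 9 in NC. Peaks that span introns can overlap without a common exonic base, which applies to SREBF1 and MBTPS1, and overlap over exons alone was not computed. With at least 50% of each of the 2 peaks covered by the other, 4 of 9 peaks in each list had a partner. The share of all listed peaks with a partner was not computed, so these counts cannot be called high or low.

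Lists of genes that act around and below these regulators were described in the same way. Of 22 sterol synthesis genes, 12 were higher by 2-fold in MA, against 10.3% of all tested genes, and none was lower. Their median log2 difference was 1.25, against 0.11 over all tested genes. The 4 with the largest differences were HMGCS1 (141 FPKM in MA against 9.51 in NC, 3.76), MSMO1 (168 against 12.2, 3.68), IDI1 (30.3 against 6.32, 2.10) and SC5D (14.0 against 2.81, 1.98). All 4 encode enzymes of the pathway to cholesterol. INSIG1, at 2.99, stood between MSMO1 and IDI1. The SREBF2 transcript, in contrast, was lower in MA than in NC. The range of the list went down to -0.57, and 20 of the 22 genes were above 0, as were 5991 of all 10564 tested genes. Peaks were listed for 17 of the 22 in MA and 17 in NC, near the 80.0% and 83.3% of all tested genes. TM7SF2, a sterol reductase, had a peak only in MA and LSS, the lanosterol synthase, only in NC. Of all tested genes, 4.04% had peaks only in MA and 7.29% only in NC.

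Fatty acid synthesis genes, typical targets of SREBF1 products, had smaller differences. Of the 14 tested, 2 were higher by 2-fold, near the 10.3% of all tested genes, and none was lower. Their median was 0.48 against 0.11 over all tested genes. Of the 14, 12 were above 0, against 5991 of all 10564 tested genes. The lowest was FASN, the fatty acid synthase, at -0.46, named after its values were seen. ACSL3, which activates fatty acids, was at 148 FPKM in MA and 43.1 FPKM in NC (1.76), and the desaturase SCD at 731 FPKM in MA and 331 FPKM in NC (1.14). Next came ACSS2 (0.94), ELOVL5 (0.88) and PNPLA3 (0.77). No tested gene of this list had peaks in a single list only, against 4.04% (MA only) and 7.29% (NC only) of all tested genes.

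Genes of sterol uptake, transport and efflux showed no common direction. Of 18 tested genes, 9 were above 0, against 5991 of all 10564 tested genes. The median was 0.04, and 1 gene was higher by 2-fold, against 10.3% of all tested genes. TMEM97, which encodes a sterol-binding membrane protein, was this gene, at 86.2 FPKM in MA and 26.9 FPKM in NC (1.64). OSBPL8 (0.98) and STARD5 (0.64) followed. STARD5 was at 1.20 FPKM in MA and 0.409 FPKM in NC, so it passed the filter through MA alone. Among genes of this list at 5 FPKM or more, the median was -0.15. At the other end, the lipoprotein receptors LRP1 and SCARB1 had differences of -0.69 and -0.68. LIPA, the lysosomal lipase that frees cholesterol from its esters, had a peak only in MA, as did 4.04% of all tested genes. GRAMD1A, a sterol transporter, and NR1H2, an oxysterol receptor of the LXR type, had peaks only in NC, as did 7.29%.

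The list of trafficking and degradation factors of the SREBP pathway held 26 tested genes, of which 2 were higher and 1 was lower by 2-fold, with a median of 0.19. This is near the 10.3% and 2.98% of all tested genes and their median of 0.11, so the genes named next are single values and not a result about the list. HSPA5, the chaperone BiP, was at 248 FPKM in MA and 102 FPKM in NC (1.28). SEC24D, a cargo adaptor of the COPII coat, was at 15.6 FPKM in MA and 7.18 FPKM in NC (1.02). SEC23A, another coat subunit, had a difference of 0.98 and PAQR3, a Golgi protein that tethers SCAP, one of 0.96. PAQR3 was at 2.69 FPKM in MA and 0.893 FPKM in NC, so it passed the filter through MA alone. TRIM28, a corepressor, was at 71.3 FPKM in MA and 151 FPKM in NC (-1.07). Peaks only in NC were listed for 4 of the 26 genes, SEC23A, SEC24C, SEC24D and VCP, against 7.29% of all tested genes. UFD1, a cofactor of VCP, had a peak only in MA, as did 4.04% of all tested genes.

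**Figure D4:**
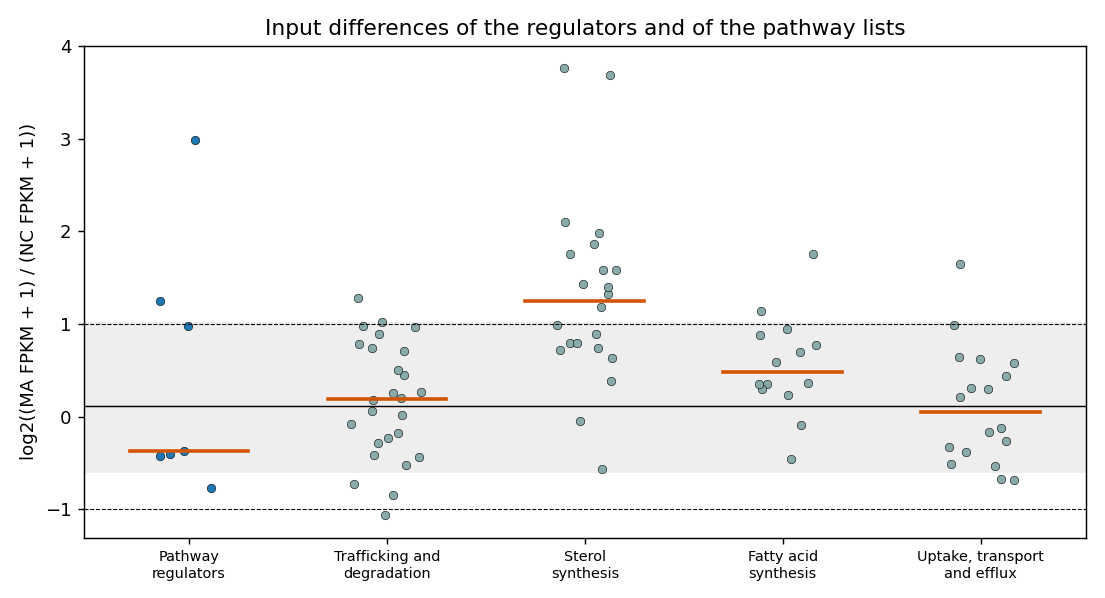
Input differences, as log2((MA FPKM + 1)/(NC FPKM + 1)), of the 7 regulators (blue) and of the tested genes of 4 pathway lists. Each point is 1 gene, orange bars are medians, the grey band runs from the 10th to the 90th percentile of all tested genes (-0.60 to 1.01), and dashed lines mark 2-fold. The sterol synthesis list has the highest median, 1.25, and the regulators are split, with 3 genes at 0.98 or above and 4 genes at -0.37 or below.

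The cell identity given by the labels was checked against marker genes. All 8 markers of melanocytes and uveal melanoma reached 1 FPKM, from 34.8 to 1327 FPKM in MA and from 55.9 to 4027 FPKM in NC. Their summed level was 3419.5 FPKM in MA and 7773 FPKM in NC. Among 12 markers of other cell types (fibroblast, leukocyte, endothelial, epithelial), the table listed 7, and only LUM reached 1 FPKM, at 12.0 FPKM in MA and 4.96 FPKM in NC. The lower melanocyte markers moved with the same libraries as the values above, and their part in these was not tested. The library totals recovered from the FPKM values were 41630895 in MA and 37041597 in NC.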

How the data were processed

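The authors' deposited table gives FPKM of the input libraries. The authors' deposited peak lists give, per the file headers, position, exonic length, feature, gene, p-value and false discovery rate (fdr), and the fold enrichment as a ratio of m6A library over input. Per the submitters' processing notes, the build was GRCh38.p13 and the tools were ChIPseeker, deepTools, HISAT, HISAT2 and Trimmomatic, without roles or versions. No label or header names the read counter, the peak caller or the thresholds.

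Starts were raised by 1 to count from 1. Rows that repeated a stretch (99 in MA, 132 in NC) were dropped, whether under the same gene or another, and the first row was kept. Differences are log2 values with a pseudocount of 1 FPKM, over genes that reached 1 FPKM in either input. Totals were recovered as the values at which FPKM give whole reads and whole gene lengths (equal to RefSeq spans in 174 genes, against 36 for the next candidate). Within 0.0002 reads, 99.9% of 13055 genes resolved, and 4.52% of a sample of them did once the values were shifted slightly. Reads are the smallest that fit, which makes an exact 95% binomial interval too wide where the true reads are more. Intervals cover counting error only, and PCR copies make them too narrow, since no molecular identifiers are described.

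The recovery of read numbers and totals was checked on simulated libraries. There the true gene lengths were given to the recovery, which the data do not allow. Named genes are the 7 regulators, the 5 largest absolute differences of each list (1 gene is not reported here), genes with peaks in a single list, and the 3 genes nearest to a regulator. The genes, lists and tests were chosen with earlier results of these data known. Alternatives were other pseudocounts (0.1 and 5), scalings, filters and peak criteria. Python 3.11.15 with pandas 2.3.3, numpy 2.4.6 and scipy 1.17.1 was used.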

Additional observations from a re-analysis of the deposited data

How the results depend on the processing

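The direction of each regulator was the same under all alternatives tried. With the median of all genes set to 0, SREBF1, SREBF2, SCAP and MBTPS1 had log2 differences of -0.56, -0.54, -0.90 and -0.50. As TPM, SREBF1, SREBF2 and MBTPS1 had -0.36, -0.33 and -0.31 and INSIG1 had 3.13. With a pseudocount of 5, SCAP, INSIG1, INSIG2 and MBTPS2 had -0.66, 2.65, 0.57 and 0.73. The number of regulators higher by 2-fold was 2 as reported, 3 (MBTPS2 added) with a pseudocount of 0.1 and as TPM, and 1 (INSIG1) with a pseudocount of 5 and among genes at 5 FPKM or more, a filter that INSIG2 does not pass. The share of all tested genes moved too, from 10.3% higher as reported to 17.0% with a pseudocount of 0.1, 16.3% as TPM, 2.58% with a pseudocount of 5, 11.3% among genes at 5 FPKM or more and 7.46% after rescaling, and the list counts below are read against these shares.

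In the trafficking list, 5 genes were higher with a pseudocount of 0.1 and as TPM, 1 with a pseudocount of 5 and after rescaling to the median, and 0 were lower as TPM. Its median was 0.067 after rescaling. The sterol synthesis median was 0.92 with a pseudocount of 5, 1.14 after rescaling and 1.39 as TPM, and its count of higher genes stayed between 10 and 13. The fatty acid median was 0.35 with a pseudocount of 5, 0.36 after rescaling, 0.58 as TPM and 0.59 at 5 FPKM or more. In the uptake list, 3 genes were higher with a pseudocount of 0.1 and as TPM. Its median was 0.30 as TPM, and it turned to -0.083 after rescaling and -0.15 at 5 FPKM or more. Rescaling set the median of all tested genes to 0. That median was 0.072 with a pseudocount of 5, 0.21 as TPM and 0.050 at 5 FPKM or more, and the list medians are read against these values. The cause of the turn at 5 FPKM or more was not tested.

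With a fold enrichment of at least 3, 3 regulator peaks in 2 genes were left in MA and 2 peaks in 1 gene in NC, of which 2 in MA and 2 in NC had a partner. With at least 50% of each of the 2 peaks covered by the other, 4 in MA and 4 in NC had one. Of the whole MA list, 44.2% of peaks lay below a fold of 3.00. The list medians were 3.07 in MA and 3.57 in NC, so this cut falls at a different place in each list. The share of the NC list past it, and the shares of all listed peaks with a partner, were not computed. Equal list lengths left all 9 peaks in each list. Overlap over exonic blocks was not run, since the lists give no blocks. No paired analysis was possible because each group had 1 library. INSIG2 in NC, with a minimum of 29 reads, is the value that depth limits most.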

Other observations

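The site-1 and site-2 proteases also cut other membrane proteins, so 8 further substrates of either enzyme were looked at, a list chosen after the values of the regulators were seen. Of these, 6 reached 1 FPKM. None of the 6 differed by 2-fold, while 10.3% of all tested genes were higher and 2.98% lower. In a list of 6 genes, none is near those shares. The differences went from -0.49 to 0.38, with a median of -0.08. Of the 6, 2 were above 0, against 5991 of all 10564 tested genes. ATF6, the stress sensor of the endoplasmic reticulum that both proteases activate, was at 17.7 FPKM in MA and 13.3 FPKM in NC (log2 difference 0.38). Its relative ATF6B was at 62.4 FPKM in MA and 87.8 FPKM in NC (-0.49). GNPTAB, a subunit precursor of the enzyme that tags lysosomal proteins, was at 11.3 FPKM in MA and 15.6 FPKM in NC (-0.43). Peaks were listed for 5 of the 6 genes in MA and for all 6 in NC, near the 80.0% and 83.3% of all tested genes.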
